A study of Mus musculus with 30 samples.

Results

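Neuromedin B and its receptor were followed through gonadal white adipose tissue, a visceral depot that surrounds the testes, on every array of the series. The members were all probe sets that carry the symbol Nmb or Nmbr, which gave 3 of the 41345 probe sets on the array: 1 for Nmb, 1 for Nmbr and 1 that carries Nmbr together with the symbol 1700016L04Rik. All 30 arrays came from male C57BL6/J mice without any genetic alteration named in the labels, all 35 weeks old, with 6 arrays in each of 5 groups. Formerly obese-HFD mice had 20 weeks of a diet rich in fat and sucrose (HFD), 7 weeks of the control diet and then HFD for another 48 h. Formerly obese mice had the same 20 weeks of HFD and 7 weeks of control diet and no refeeding. Obese mice had HFD for 27 weeks. Fat made up 58% of the calories of HFD and 10.5% of those of the control diet. Lean-HFD mice had the control diet for 27 weeks and then their only 48 h of HFD, and lean mice had the control diet alone for 27 weeks. The labels call the arrays replicates and do not say which animal each came from, so p-values measure the spread between these arrays. All 11 adipocyte marker genes that were checked, Adipoq and Plin1 among them, lay above the level filter of 16, as the tissue label would have it.

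Neuromedin B is a secreted peptide of the bombesin-like family, which in mammals also includes gastrin-releasing peptide. It is cut from a larger precursor and amidated at its end, and it acts on a receptor of the G protein-coupled class that signals through Gq, phospholipase C and calcium. The peptide is known for effects on smooth muscle, body temperature, pituitary hormone release and feeding, and its transcript is known from human and rodent fat. The transcript of a peptide gene reports neither the peptide that is released nor the cell that makes it. In bulk tissue, fewer cells of a type and less RNA per cell cannot be told apart.

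The sequences just before the start of each gene are shown to let the bases that precede the ligand gene be read beside those that precede the receptor gene. Each is the 250 bases upstream of the start annotated by RefSeq on GRCm38.p6, written 5′ to 3′ on the gene's own strand, without any transcribed base. Nmb lies at chr7:80905063-80905312 on the minus strand and Nmbr at chr10:14759697-14759946 on the plus strand. Capitals mark each GC box, GGGCGG on either strand.
Nmb: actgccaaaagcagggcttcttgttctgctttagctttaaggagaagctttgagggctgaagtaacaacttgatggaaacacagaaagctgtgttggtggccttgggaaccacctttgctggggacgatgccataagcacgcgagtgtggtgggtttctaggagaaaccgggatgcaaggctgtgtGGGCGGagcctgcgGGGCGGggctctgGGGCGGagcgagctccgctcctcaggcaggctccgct
Nmbr: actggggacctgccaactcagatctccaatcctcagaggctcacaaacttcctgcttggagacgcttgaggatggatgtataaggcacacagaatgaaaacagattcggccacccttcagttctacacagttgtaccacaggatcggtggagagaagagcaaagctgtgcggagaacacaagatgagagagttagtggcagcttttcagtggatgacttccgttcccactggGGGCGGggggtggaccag
The Nmb window held 3 GC boxes and the Nmbr window 1. A GC box was found in 32.7% of the 32851 RefSeq mouse promoters searched in the same way. The windows were 58.0% and 52.8% G and C for Nmb and Nmbr, against a median of 52.4% over all promoters. Neither window held TATAAA (12.4% of promoters) or TGACGTCA (1.55%), and CCAAT (33.8%) was found once, in Nmbr. A match is only a match of letters, and the searched motifs did not overlap each other in these windows.

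The Nmb transcript was well above the level filter on all 30 arrays, at 7.967 to 9.51 log2 units. Formerly obese-HFD arrays read 9.254, 9.51, 9.407, 9.134, 9.047 and 8.979. Formerly obese arrays read 8.708, 8.984, 9.06, 8.709, 8.712 and 9.051. Obese arrays read 8.525, 8.391, 8.573, 8.176, 8.069 and 8.148. The groups with a history of obesity and a present control diet or short HFD thus stood at the top, and every array of both lay above every obese array. Lean-HFD arrays read 8.443, 8.544, 9.24, 8.314, 8.363 and 8.224. Lean arrays read 7.967, 8.091, 8.432, 8.197, 8.018 and 8.183. The lean-HFD group held 1 array, replicate 3, that stood far above its other 5 and among the formerly obese-HFD arrays.

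**Figure D1:**
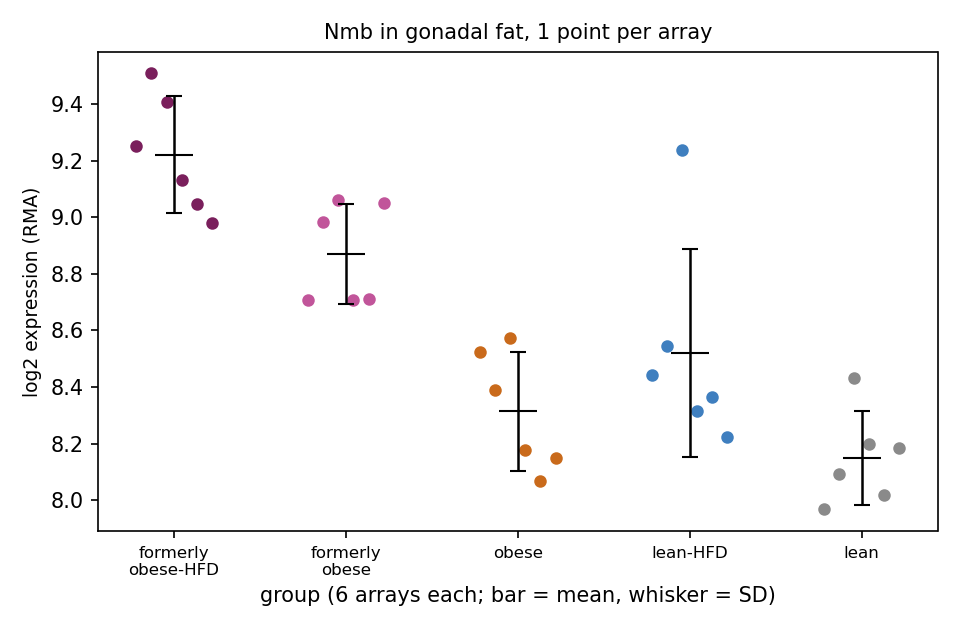
Nmb expression in log2 units (RMA) on each of the 30 arrays, by group, with 6 points per group, the mean as a bar and the SD as a whisker. Both formerly obese groups lie above the obese and lean arrays without overlap, and the highest lean-HFD array, at 9.24, stands apart from the other lean-HFD arrays.

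Group means were 9.22 ± 0.21 in formerly obese-HFD, 8.87 ± 0.18 in formerly obese, 8.52 ± 0.37 in lean-HFD, 8.31 ± 0.21 in obese and 8.15 ± 0.17 in lean mice (log2, SD, n = 6 each). On the linear scale the means were 597.1, 468.1, 367.43, 318.17 and 283.66 in the same order. The group means spanned 1.07 log2 units, while the pooled SD within groups was 0.24. Of neighbours in this order, formerly obese-HFD and formerly obese arrays overlapped, formerly obese and lean-HFD arrays overlapped, and lean-HFD, obese and lean arrays overlapped with one another.

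Nmb was selected on its measured level in formerly obese mice under both diets, so the differences that involve this history are given as descriptions with no test. Formerly obese mice exceeded lean mice by 0.72 ± 0.10 log2 (SE of the limma fit, 1.65-fold), with the lowest formerly obese array 0.276 above the highest lean array. Such a separation upward was found in 0.254% of all probe sets. Under 48 h of HFD the difference between formerly obese-HFD and lean-HFD mice was 0.70 ± 0.16 (1.63-fold), with all 6 formerly obese-HFD arrays above the lean-HFD mean and 3 of 6 above every lean-HFD array. Without lean-HFD replicate 3, the array with the highest Nmb of its group, this difference was 0.84. No other lean-HFD array overlapped the formerly obese-HFD arrays, so the separation without it follows from the choice of array. With all 6 arrays a group 0.186% of probe sets separated upward, and Nmb was not among them. Averaged over both diets the history of obesity stood for 0.71 ± 0.098 log2 (1.64-fold). In both the formerly obese and the formerly obese-HFD comparison, 419 probe sets differed over 1.3-fold upward with a level over 16, 1.01% of all.

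The level of Nmb after obesity was not that of obese mice. Obese mice exceeded lean mice by 0.17 ± 0.11 log2 (1.12-fold, 95% interval -0.07 to 0.40, limma adjusted p = 0.482), with 4 of 6 obese arrays above the lean mean and both groups overlapping. In this comparison 6.04% of probe sets passed (adjusted p under 0.10, fold over 1.3 and level over 16) and 3.09% separated upward. Formerly obese mice exceeded obese mice by 0.56 ± 0.11 (1.47-fold), with all 6 formerly obese arrays above every obese array, as was the case upward for 1.44% of probe sets. The difference between obese and lean mice uses the same lean arrays as the one that led to the choice of Nmb, and the last difference is again a description.

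Whether short HFD feeding altered Nmb was open to a test, because the effect of 48 h of HFD averaged over both histories takes nothing from the history difference. Nmb was higher after 48 h of HFD by 0.36 ± 0.098 log2 (1.29-fold, 95% interval 0.16 to 0.56). The unadjusted limma p was 0.00116 and the adjusted p over all probe sets 0.26, so the difference did not pass, and its fold lay just under the filter of 1.3. In this comparison 0.0556% of probe sets passed. In formerly obese mice the difference was 0.35 ± 0.11 (1.28-fold), with all 6 formerly obese-HFD arrays above the formerly obese mean and 4 above every formerly obese array. In lean mice it was 0.37 ± 0.16, with all 6 lean-HFD arrays above the lean mean and 3 above every lean array. Without lean-HFD replicate 3 the difference in lean mice was 0.23, and that of both histories together 0.29. The response in formerly obese mice minus that in lean mice was -0.02 ± 0.20 (95% interval -0.43 to 0.38), an interval that leaves room for a difference as large as the response itself. These 3 values are built from the groups on which Nmb was selected and are descriptions, with no test.

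Formerly obese-HFD mice, which carry both the history and the short diet, exceeded lean mice by 1.07 log2, or 2.11-fold, and no array of either group overlapped, as in 0.244% of probe sets upward. They exceeded obese mice by 0.91 (1.88-fold), again with no overlap, as in 2% of probe sets upward. These differences share arrays with those above.

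**Figure D2:**
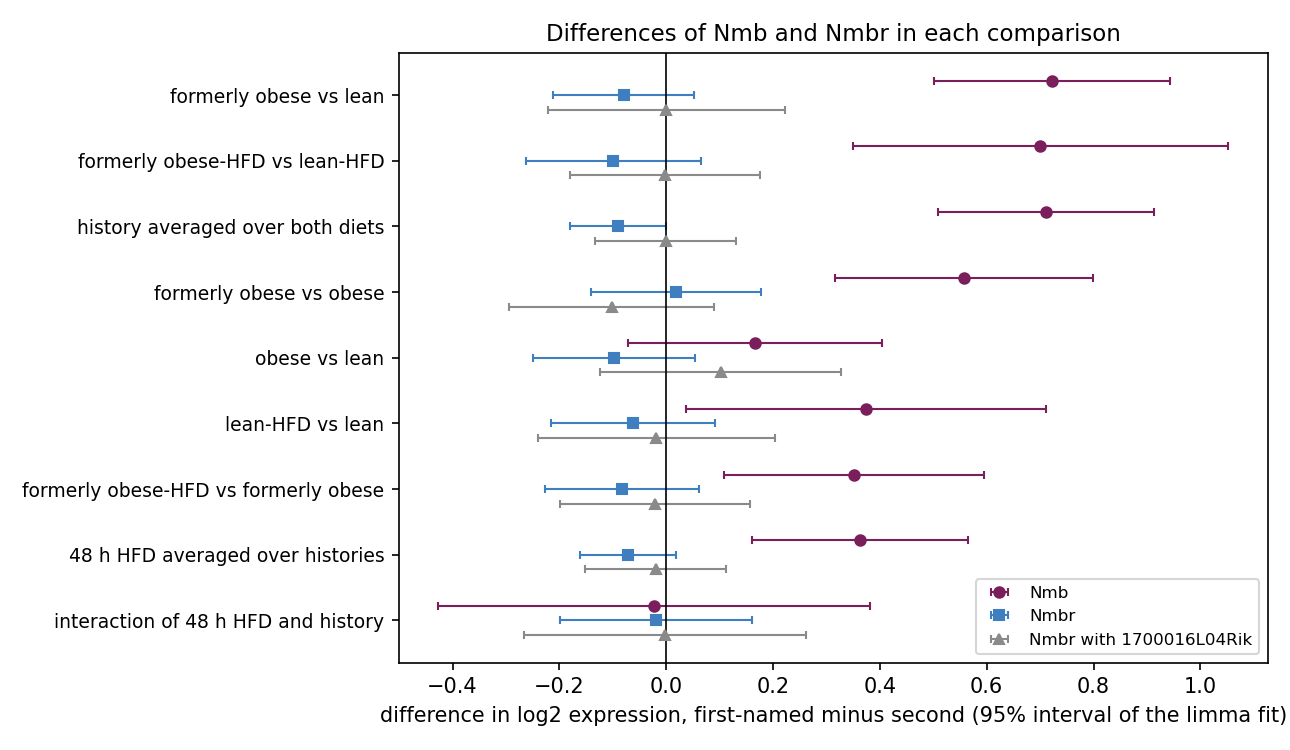
Differences in log2 expression of the Nmb probe set and both Nmbr probe sets in 9 comparisons, each the group named first minus the one named after it, with the 95% interval of the limma fit. Nmb lies between 0.56 and 0.72 in the 4 comparisons with a history of obesity and near 0.36 after 48 h of HFD, and both Nmbr probe sets stay within 0.102 of 0.

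Nmbr, the receptor gene, was below the level filter of 16, which is 4 in log2 units, on all 30 arrays for either probe set, so that these values say little of whether fat holds any receptor transcript. For the probe set with Nmbr alone, formerly obese-HFD arrays read 3.077, 3.209, 3.251, 3.248, 3.137 and 3.198. Formerly obese arrays read 3.384, 3.199, 3.26, 3.302, 3.153 and 3.313. Obese arrays read 3.245, 3.404, 3.356, 3.248, 3.204 and 3.044. All of these lay within a narrow band at the low end of the array's scale. Lean-HFD arrays read 3.297, 3.401, 3.162, 3.461, 3.162 and 3.232. Lean arrays read 3.365, 3.333, 3.384, 3.306, 3.393 and 3.309. All 6 formerly obese-HFD arrays were below every lean array, by 0.16 in the mean (0.894-fold), and 0.762% of probe sets separated downward in the same pair of groups. This pair was picked after its values were seen and was not tested.

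Nmbr had group means of 3.19 ± 0.068 in formerly obese-HFD, 3.27 ± 0.083 in formerly obese, 3.25 ± 0.13 in obese, 3.29 ± 0.12 in lean-HFD and 3.35 ± 0.038 in lean mice (log2, SD, n = 6 each). Unlike Nmb, the receptor was not chosen for its values and was tested in every comparison. Averaged over both diets, Nmbr was lower after obesity by -0.09 ± 0.043 (limma adjusted p = 0.467). It differed by -0.08 ± 0.061 between formerly obese and lean mice (adjusted p = 0.85), by -0.10 ± 0.076 between formerly obese-HFD and lean-HFD mice (adjusted p = 0.779) and by -0.10 ± 0.070 between obese and lean mice (adjusted p = 0.522). After 48 h of HFD it differed by -0.07 ± 0.043 (adjusted p = 0.806). The probe set shared with 1700016L04Rik ranged between 3.079 and 3.669, with group means of 3.34 in formerly obese-HFD, 3.36 in formerly obese, 3.46 in obese, 3.34 in lean-HFD and 3.36 in lean mice, and cannot be given to either gene. Neither Nmbr probe set could pass in any of the 9 comparisons, whatever its p or fold, because every group mean lay under the level filter. None of their 18 values had an unadjusted limma p under 0.05, the lowest being 0.0506, for Nmbr with the history over both diets. Of all probe sets 5.19% passed between formerly obese and obese mice, 0.307% for the history over both diets and 0% both between formerly obese and lean mice (6.92% at an unadjusted p under 0.05) and between formerly obese-HFD and lean-HFD mice (8.27%). For the short diet 0.00242% passed between lean-HFD and lean mice, and 0% both between formerly obese-HFD and formerly obese mice (5.34% at an unadjusted p under 0.05) and for the interaction of diet and history (4.61%).

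No relation between ligand and receptor was detectable among the arrays of a group. With each group's mean removed, Nmb and Nmbr had Pearson r = 0.0050 (permutation p = 0.984) and Spearman rho = 0.12 (permutation p = 0.581) over 30 arrays, both two-sided with 100000 resamples within groups. Without the 2 arrays farthest from the median of Nmb, formerly obese-HFD replicates 2 and 3, r was -0.050 (permutation p = 0.857) and rho 0.045 (permutation p = 0.837). Those 2 arrays were chosen on levels with group means still in. Lean-HFD replicate 3, which stood apart within its group, stayed in, so its influence was not examined. The relation of Nmb and Nmbr was the single one of its kind computed, and the receptor was below the filter on every array.

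The other genes of the bombesin-like family were near or below the filter. Grp, which encodes gastrin-releasing peptide, had group means of 4.06 in formerly obese-HFD, 3.99 in formerly obese, 4.11 in obese, 3.97 in lean-HFD and 3.99 in lean mice, and 19 of its 30 arrays were over 16. Its receptor gene Grpr had 0 of 30 arrays over 16. Brs3, the orphan receptor of the family, had 21 of 30. Averaged over both diets Grpr was higher after obesity by 0.12 ± 0.058 (limma adjusted p = 0.474). In limma none of the 3 passed in any of the 9 comparisons, while 8.08% of all probe sets passed in at least 1 of them. Grpr could not pass, since its group means all lay under the level filter. Grp was barred likewise in pairs drawn from formerly obese, lean-HFD and lean mice. None of the 27 values of these 3 genes had an unadjusted limma p under 0.05, the lowest being 0.0536. Across the 9 comparisons their differences ran from -0.12 to 0.14.

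**Figure D3:**
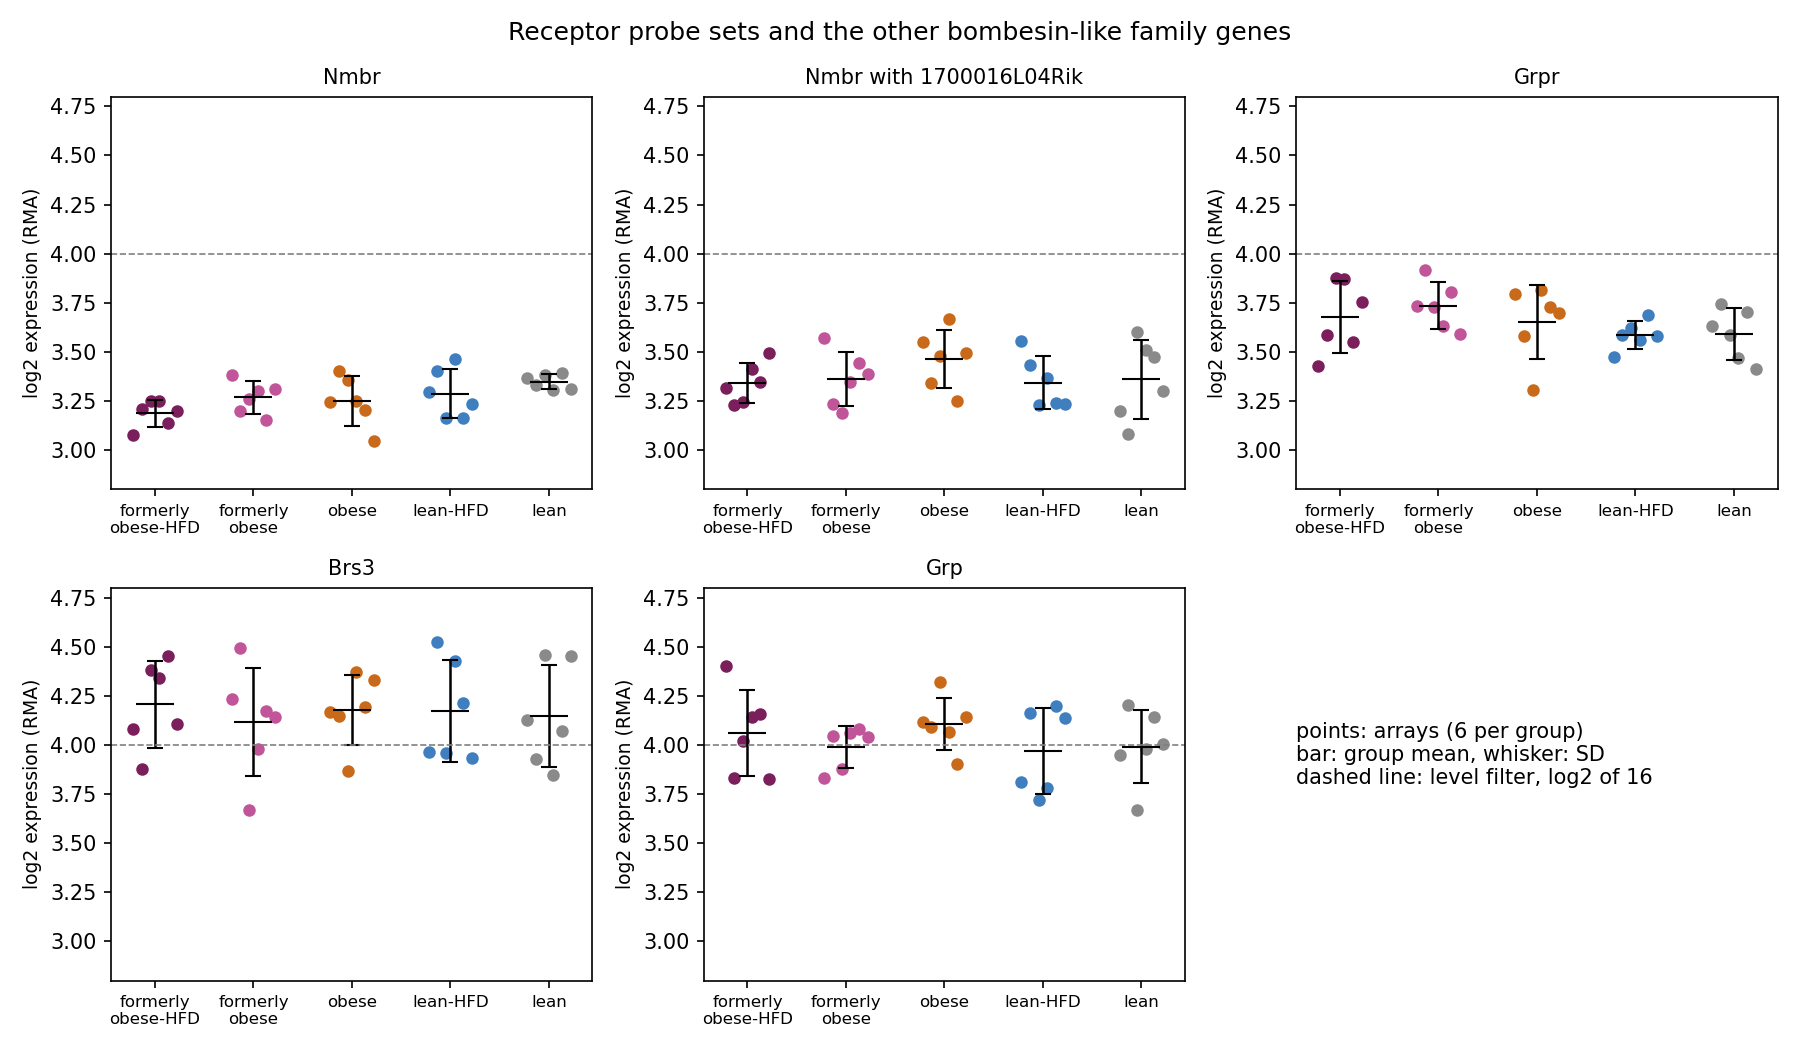
Log2 expression (RMA) of both Nmbr probe sets, Grpr, Brs3 and Grp on each array by group, with 6 points per group, the mean as a bar, the SD as a whisker and the level filter as a dashed line at 4. Both Nmbr probe sets and Grpr lie under the line on all 30 arrays, while Brs3 and Grp straddle it.

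Genes that process, break down or relay a peptide of this kind passed the test in obese against lean mice and in formerly obese against obese mice. None did in formerly obese against lean mice, where no probe set of the array passed in the present fit. The paper reports a few genes, Nmb among them, in that comparison at the same adjusted p and fold cut-offs. Why its count differs from the present one was not tested. Of 10 measured genes of propeptide processing, 2 rose and 1 fell in obese against lean mice, where 3.93% of all probe sets rose and 2.11% fell. Pam, which amidates peptide ends, rose by 0.75 ± 0.10 (adjusted p = 0.00123), Qpct, which cyclises glutamine at the start of peptides, rose by 0.66 ± 0.17 (adjusted p = 0.0383), and the propeptide convertase Pcsk6 fell by 0.71 ± 0.090 (adjusted p = 0.000785). The same 3 genes passed in the opposite direction between formerly obese and obese mice, which share the obese arrays with the comparison before, at -0.59 ± 0.12 for Pam, -0.79 ± 0.18 for Qpct and 0.50 ± 0.12 for Pcsk6. There 2.02% of all probe sets rose and 3.17% fell. The list's median difference was 0.01 in obese against lean mice, beside -0.02 over all probe sets. Between formerly obese and lean mice none of the 10 passed, with Cpd, a carboxypeptidase of the secretory pathway, at -0.16 ± 0.078 (adjusted p = 0.736) as the smallest p.

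Among 8 peptidases, obese against lean mice had 2 up and 1 down, where 3.93% of all probe sets rose and 2.11% fell. Anpep, aminopeptidase N, rose by 1.65 ± 0.25 (adjusted p = 0.00196), the oligopeptidase gene Nln rose by 0.45 ± 0.096 (adjusted p = 0.0146), and Dpp4, dipeptidyl peptidase, fell by 0.59 ± 0.13 (adjusted p = 0.0186). Between formerly obese and obese mice each of them passed in the opposite direction, Anpep at -1.03 ± 0.29, Nln at -0.64 ± 0.11 and Dpp4 at 0.69 ± 0.12. In this comparison 2.02% of all probe sets rose and 3.17% fell. The median difference of the 8 genes was 0.10 in obese against lean mice and 0.02 in formerly obese against lean mice, beside -0.02 and -0.01 over all probe sets. None passed in formerly obese against lean mice, where Anpep differed by 0.62 ± 0.19 (adjusted p = 0.531).

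Downstream of Gq, 4 of 16 measured genes rose in obese against lean mice and none fell, beside 3.93% and 2.11% of all probe sets. Macrophage markers were higher in the same comparison, where 9 of 12 rose, with a median of 1.55, and their part in the values of these genes was not tested. Rgs2, which dampens Gq signalling, rose 2.29-fold (SE 0.19 log2, adjusted p = 0.00315), and the protein kinase C genes Prkcd and Prkcb rose by 0.94 ± 0.14 and 0.79 ± 0.17 (adjusted p = 0.00219 and 0.0169). Between formerly obese and obese mice only Prkcd passed in this list, at -0.70 ± 0.16, where 3.17% of all probe sets fell. The median difference of the 16 genes was 0.01 in obese against lean mice and 0.06 in formerly obese against lean mice, where none passed. The other neuromedin genes share the name and not the family. Of these, 1 of 7 passed in at least 1 of the 9 comparisons, as did 8.08% of all probe sets. Ntsr2, a neurotensin receptor, fell after 48 h of HFD averaged over both histories by 0.63 ± 0.12 (limma adjusted p = 0.0651). In that comparison 0.0435% of all probe sets fell. Among 19 other peptide hormone genes, obese against lean mice had 1 up, Cck for cholecystokinin by 2.09 ± 0.33 (adjusted p = 0.00267), and 2 down, Agt for angiotensinogen by -1.36 ± 0.15 (adjusted p = 0.000381) and the enkephalin gene Penk by -0.47 ± 0.087 (adjusted p = 0.00661). In formerly obese against lean mice, none of these 19 passed.

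The genes whose levels followed Nmb most closely over the 30 arrays were described by Pearson r, among 14946 genes above the filter. Dpep1, a membrane dipeptidase, had the highest r with 0.79, and 0.66 once group means were removed. It was followed by Zfp36l1, which destabilises messenger RNAs, at 0.76 (0.34 within groups), the complement gene C7 at 0.74 (0.30), the zinc finger gene Zfp521 at 0.74 (0.58), Ifngr1, a chain of the interferon gamma receptor, at 0.74 (0.52) and the translation initiation factor Eif4b at 0.74 (0.27). At the other end stood Ssr2, of the protein translocation complex, at -0.77 (-0.32 within groups), the adhesion gene Clmp at -0.73 (-0.55), the basement membrane collagen Col15a1 at -0.73 (-0.13) and Wfdc21 at -0.72 (-0.17). No gene exceeded 0.8 in either direction, 18 had r over 0.7 and 6 had r under -0.7. These points share arrays and group means, so r is given without a p. By Spearman rho within groups, Ifngr1 was lower at 0.27 and Ssr2 weaker at -0.13, while Dpep1 read 0.70 and Zfp521 0.56.

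Dpep1 and Zfp521 had larger differences with the history of obesity than with the short diet. These genes were picked for following Nmb, which was itself chosen for its level after obesity. Their patterns over the groups follow in part from that choice and are given as descriptions. Formerly obese against lean mice differed by 0.45 for Dpep1 and 0.23 for Zfp521, formerly obese-HFD against lean-HFD mice by 0.47 and 0.25, and 48 h of HFD over both histories by 0.06 and 0.05. C7 differed in both, by 0.57 with the history over both diets and by 0.47 with 48 h of HFD. In obese against lean mice the 6 genes with the highest r differed by -0.10 (Zfp36l1) to 0.02 (Eif4b).

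**Figure D4:**
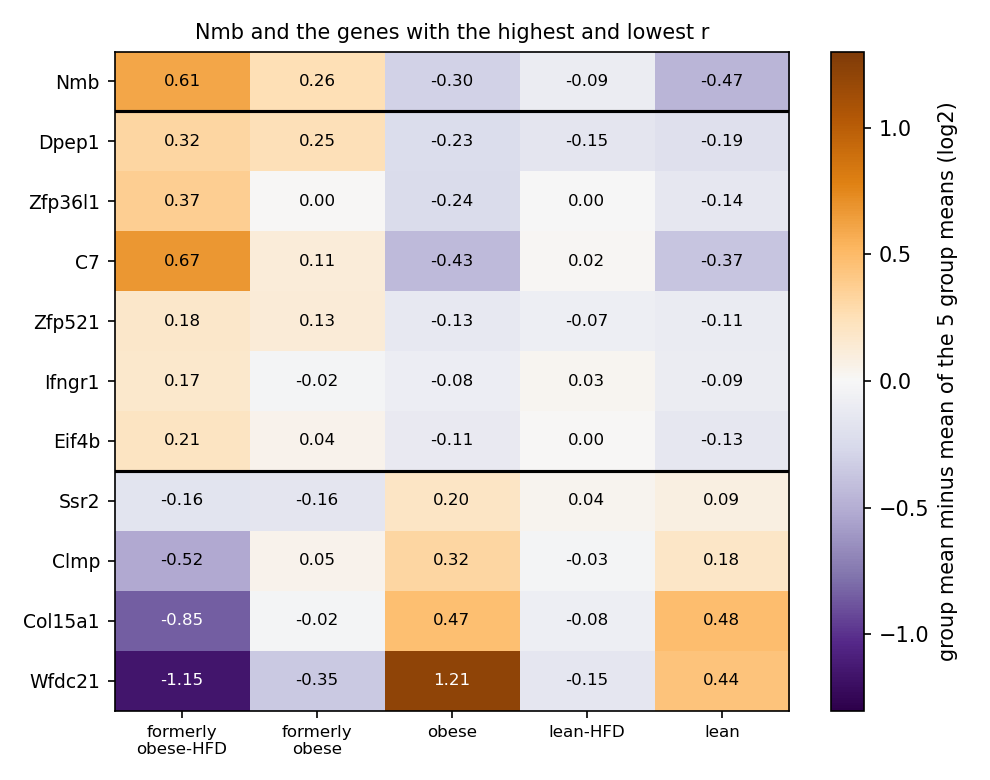
Group means of Nmb, the 6 genes with the highest and the 4 with the lowest Pearson r with it, each minus the mean of that gene's 5 group means, in log2 units and printed in the cells. Dpep1 has 0.32 in formerly obese-HFD and 0.25 in formerly obese mice, above its 3 other groups, and Wfdc21 runs the other way, with -1.15 in formerly obese-HFD and 1.21 in obese mice.

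The genes beside Nmb on its chromosome were read as well. Of the 3 genes on either side in RefSeq order, all 6 had a probe set, and 1 passed in any of the 9 comparisons, as did 8.08% of all probe sets. This was Iqgap1, a scaffold of the cell cortex, which rose in obese against lean mice by 0.80 ± 0.11 (adjusted p = 0.000983) and fell in formerly obese against obese mice by 0.62 ± 0.12 (adjusted p = 0.0131). Wdr73 and the signal peptidase gene Sec11a, the immediate neighbours, differed by 0.10 ± 0.11 and 0.01 ± 0.064 between formerly obese and lean mice.

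Markers of several cell types differed in level between the groups that Nmb set apart, most of them without passing the test, and their part in the Nmb differences was not tested. To score a list on an array, each gene was centred on its mean over the 30 arrays and the centred log2 values of the list were averaged. T and NK cell markers, 8 of 8 above the filter, ran from -0.52 to 1.42 in formerly obese-HFD, from -0.33 to 0.97 in formerly obese, from -0.44 to 0.44 in obese, from -0.64 to 0.22 in lean-HFD and from -0.56 to -0.23 in lean mice. In formerly obese against lean mice all 8 had positive differences, with a median of 0.74, and none passed. In that comparison and in formerly obese-HFD against lean-HFD mice 0% of all probe sets passed, so not passing sets no list apart. Macrophage markers, 12 of 12 above the filter, had mean scores of 0.04 in formerly obese-HFD, 0.10 in formerly obese, 1.06 in obese, -0.63 in lean-HFD and -0.57 in lean mice. Of these 12 genes, 11 had positive differences in formerly obese against lean mice, with a median of 0.52, and 12 in formerly obese-HFD against lean-HFD mice, with a median of 0.66. None passed in either, and averaged over both diets 1 rose, Gpnmb, a glycoprotein of macrophages, by 1.66 ± 0.35 (adjusted p = 0.0617). For the history over both diets 0.307% of all probe sets passed in either direction. Mesothelial markers, 9 of 9 above the filter, had mean scores of 0.18, 0.22, -0.58, 0.22 and -0.05 in the same groups, and 9 of 9 had positive differences in formerly obese against lean mice, none of which passed, and 4 of 9 had positive differences in formerly obese-HFD against lean-HFD mice. All 6 B and plasma cell markers had positive differences in formerly obese against lean mice, with a median of 0.83, and in formerly obese-HFD against lean-HFD mice, with a median of 0.28, none passing. Of 11 mature adipocyte markers, 10 had negative differences in formerly obese against lean mice and 11 in formerly obese-HFD against lean-HFD mice, with medians of -0.14 and -0.18 and none passing. Among 8 preadipocyte and fibroblast markers, Pdgfra, a receptor of such cells, rose with the history over both diets by 0.62 ± 0.11 (adjusted p = 0.0374), and the list's median was 0.08.

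Hepatocyte markers, which fat should lack, were above the filter in 8 of 8 genes. All 8 were higher after 48 h of HFD over both histories, with a median of 1.64, and all 8 were lower with the history of obesity over both diets, with a median of -1.52. None passed in either, where 0.0556% and 0.307% of all probe sets passed. Their score ran from -1.38 to 1.21 in formerly obese-HFD, from -1.60 to 0.95 in formerly obese, from -2.09 to -0.40 in obese, from -0.61 to 3.79 in lean-HFD and from -1.45 to 2.38 in lean mice. The lean-HFD array with the highest Nmb had the lowest of the lean-HFD hepatocyte scores, and the part of these transcripts in the Nmb values was not tested.

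Across the series, array medians lay between 4.849 and 4.971 log2 units and correlations between arrays between 0.953 and 0.984, no arrays were identical, and no batch is named in the labels. The number of arrays limits the precision.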

How the data were processed

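Total RNA of gonadal white adipose tissue was amplified, biotin-labelled and hybridised by the authors to Affymetrix Mouse Gene 2.0 ST arrays, which read 1 colour. Each deposited value is the log2 level of a probe set, which the authors made with RMA in Affymetrix Expression Console 1.4.1.46, that is, background correction, quantile normalization over arrays and median polish. RMA narrows small changes of dim probe sets. The log2 values were used as deposited.

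limma 3.58.1 (lmFit and eBayes, R 4.3.3) compared the 12 arrays of a pair of groups, or 24 arrays for effects averaged over diets or histories and their interaction. P-values are two-sided, with Benjamini-Hochberg adjustment across the 41345 probe sets. A probe set passed at adjusted p under 0.10, fold over 1.3 and a group mean over 16, and only such probe sets are said to have risen or fallen. Errors of differences are SEs of the fit, and intervals are 95%. The fits were tested on simulated data first.

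The members, gene lists and tests were chosen with earlier results of these data known. Nmb was chosen for its level after obesity under both diets, so p-values are given for it only for the short diet averaged over both histories and for obese against lean mice, which shares the lean arrays. Named genes are all members and family genes, at most 3 of any other list with the smallest p, the 6 highest and 4 lowest in Pearson r with Nmb, and the neighbours that passed or lie next to Nmb. Each other gene is read from its 1-symbol probe set of highest mean. Replicate numbers name different arrays and do not pair them. Promoters came from RefSeq. Alternatives were other fits, filters and scalings, a replicate block and leaving out each array.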

Additional observations from a re-analysis of the deposited data

Results flagged for a closer look

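Nmb in lean-HFD replicate 3 read 9.24, well above the other 5 arrays of its group, at 8.224 to 8.544. The gap to the next array was 0.685 of the group's whole range, past Dixon's critical value for 6 samples. Of 15 groups examined this was the 1 that stood out, and chance flags about 1 in 20 groups. Without this array the lean-HFD group averaged 8.38 ± 0.12 (SD, n = 5). Of 18 lists scored, the same array was the highest of the lean-HFD group for macrophage and endothelial markers, at -0.33 and 0.26. It was also the highest, at 0.25, for the 3 measured genes that the paper names beside Nmb. Its hepatocyte score was the lowest, at -0.61, against 1.16 to 3.79 on the other lean-HFD arrays. The score of nerve and Schwann cell markers was the lowest as well, at -0.20. These lists were singled out after all scores were seen. Their part in the Nmb value was not tested.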

How the results depend on the processing

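Of 424 recomputed values, 407 kept their direction and 17 changed sign, all of the 17 being values near 0 that did not pass. No value given with a test crossed its threshold, which the level filter kept out of reach for Nmbr. Among the Nmb differences given as descriptions, formerly obese against lean mice was 0.71 to 0.72 under the other settings and 0.68 to 0.78 with 1 array left out. Formerly obese-HFD against lean-HFD mice was 0.69 to 0.73 under the other settings and 0.64 to 0.84 with 1 array left out. With arrays centred on their medians, Nmbr in formerly obese against obese mice was -0.017 (0.018 as reported), and it ran from -0.023 to 0.049 with 1 array left out. With quantile normalization repeated, the Nmb interaction was 0.023 (-0.022 as reported), and it ran from -0.082 to 0.12 with 1 array left out, the upper end without lean-HFD replicate 3. The Nmbr interaction ran from -0.044 to 0.016 with 1 array left out. The correlation of Nmb with Nmbr was -0.050 without 2 arrays. The cause was not tested.

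Nmb after 48 h of HFD over both histories was 0.35 to 0.36 under the other settings (adjusted p 0.156 to 0.318) and 0.29 to 0.39 with 1 array left out (adjusted p 0.217 to 0.399). For obese against lean mice the difference of Nmb was 0.13 to 0.18 under the other settings and 0.11 to 0.22 with 1 array left out. Nmbr gave no value where only probe sets over 16 were kept. A replicate block changed no call: with it, Nmb after 48 h of HFD over both histories was 0.36 (adjusted p = 0.16). The labels do not say that a number marks a shared animal or day, and at most 2 of 6 same-numbered pairs in a comparison correlated over 0.1, with r from -0.25 to 0.46. The receptor's signal, below the filter on all arrays, limits what can be said of it.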
